A study of Mus musculus with 8 samples.

Results

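Messenger RNA of N-Myc-driven acute myeloid leukaemia (AML) cells was compared here with that of normal lineage-negative marrow cells, the fraction that holds the immature cells of the blood system. Genes were taken when their FPKM (fragments per kilobase of transcript, scaled to the size of the library) was at least 1 in either library, and 10682 of the 16434 listed genes met this rule. Each gene's difference is AML minus lineage-negative cells in log2(FPKM + 1), so a difference of 1 is 2-fold on that scale and understates the change of genes with low values. Folds are given separately, as one FPKM value divided by the other. The gene nearest above the limit was Zfp287 (0.0619 FPKM in AML and 1.00 in lineage-negative cells), and the nearest below it was 1700007K09Rik (1.00, just under the limit, and 0).

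The study sequenced 4 leukaemias from mice with N-Myc overexpression and 4 sorted populations of normal marrow, with 1 library in each of the 8 groups. All came from bone marrow of C57BL/6 mice aged 8 to 10 weeks. The AML cells carried GFP and were sorted as Mac1+Gr1+GFP+. The lineage-negative cells came from normal marrow and were sorted as B220-CD3-Mac1-Gr1-, and the sort used a lineage antibody cocktail. Each library was made from 2000000 sorted cells. The labels give neither the construct that overexpresses N-Myc nor the number of mice behind a library. With 1 library on each side there is no replicate check and no test: values describe these libraries, and intervals cover counting error only.

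N-Myc is a transcription factor of the MYC family, which binds DNA with its partner MAX at the E-box sequence and is known for driving ribosome production, nucleotide synthesis and cell growth. In normal marrow, stem and progenitor cells that commit to granulocytes pass through promyelocytes, which make the enzymes of the primary granules, then through myelocytes and metamyelocytes, which make secondary and tertiary granule proteins, before they mature into neutrophils. The lineage-negative gate removes cells that carry mature surface antigens, so it is used as a source of progenitors.

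The AML library held 42308155 fragments and the lineage-negative library 44474187, as recovered from the steps of the deposited values. The range over the 8 libraries was 33818622 to 52280185, and the listed genes held 70.8% to 80.1% of them. At the median gene length, an FPKM of 1 corresponded to 64.5 fragments in AML (95% Poisson interval 0.771 to 1.28 FPKM) and to 67.8 in lineage-negative cells (0.776 to 1.27). Totals differed little between the compared libraries, so a given FPKM rests on nearly the same number of fragments in both.

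The sorting antigens did not all follow the labels at the level of RNA. Itgam, which encodes the Mac1 alpha chain, was at 1.63 FPKM in AML, 34.1 in lineage-negative cells and 208 in normal Mac1+Gr1+ myeloid cells. Ly6g, a target of Gr1 antibody, was at 8.91 FPKM in AML, 85.4 in lineage-negative cells and 798 in normal myeloid cells. Ly6c2, the other Gr1 target, was at 1081 FPKM in AML, 940 in lineage-negative cells and 609 in normal myeloid cells. Transcripts of both Mac1 and Ly6g were thus lower in the Mac1+Gr1+ leukaemia than in the cells sorted as negative for them, and the Gr1 antigen of high level was Ly6c2. Ptprc, the pan-leukocyte antigen CD45, was at 67.2 FPKM in AML and 182 in lineage-negative cells.

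The lineage-negative library also contained RNA of genes that mark differentiated blood lineages. Its most abundant transcripts were Eef1a1, a translation elongation factor (7374 FPKM), S100a9 and S100a8, the calprotectin subunits of neutrophils and monocytes (7170 and 6311 FPKM), mt-Co1 (5145 FPKM) and Mpo, the myeloperoxidase of primary granules (4089 FPKM). The 13 measured basophil and mast cell genes summed to 3004 FPKM there and to 88.0 in AML, and without Kit, which progenitors also carry, to 2946 and 34.6 FPKM. The 11 eosinophil genes summed to 1683 FPKM there and to 13.6 in AML, and the 25 B and plasma cell genes to 5266 and 176. In bulk RNA, fewer cells of a type and less RNA per cell cannot be told apart. Nor can these transcripts be assigned to mature cells or to immature cells of the same lineages. How much cells of these lineages contribute to each lower gene was not tested.

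A difference of at least 1, called 2-fold here, was reached upward by 1229 of the 10682 genes (11.5%) and downward by 3121 (29.2%), 40.7% in all. The median gene differed by -0.14, with 90% of genes between -3.49 and 1.48. Large differences were mostly downward: 766 genes were at least 8-fold lower against 87 at least 8-fold higher. There were 682 genes at or above 1 FPKM in AML but under it in lineage-negative cells, and 2158 the other way round. When the libraries were scaled by median ratios the median gene moved up by 0.12 to -0.02, and the counts became 1413 higher and 2832 lower.

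**Figure D1:**
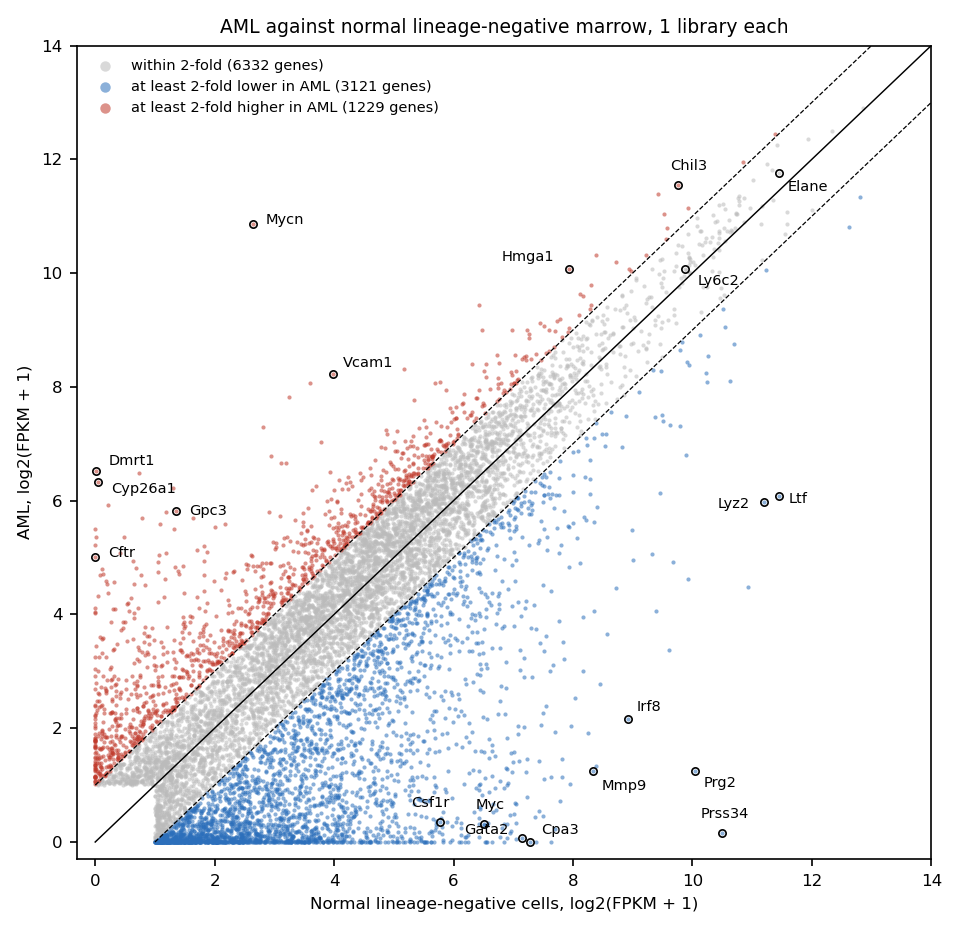
Levels of the 10682 genes in AML (vertical axis) against normal lineage-negative cells (horizontal axis), both as log2(FPKM + 1), 1 point a gene. The solid line marks equal levels and the dashed lines a 2-fold difference; 1229 genes lie above the upper line and 3121 below the lower one, and circles mark genes named in the text.

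Among the 1229 higher genes, 860 (70.0%, against 17.5% of all compared genes) had their highest level of the 8 libraries in AML. Of them, 361 (29.4% of the 1229) were at least 2-fold above each of the other 7. Having been taken because AML exceeded the lineage-negative library, they had to lean this way, so these shares only describe them. Of the 1229, 553 were also above the lineage-negative level in all 3 other leukaemias. The 3121 lower genes were also sorted by which of the 4 normal libraries had the highest level. It was B cells for 986 (31.6%), lineage-negative cells for 765 (24.5%), myeloid cells for 685 (21.9%) and T cells for 685 (21.9%). Over all compared genes these shares were 24.1%, 34.3%, 19.3% and 22.4% in the same order.

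Mycn, the gene of N-Myc (mm10 chr12:12936096-12941914), was at 1858 FPKM in AML and 5.24 in lineage-negative cells, a fold of 355 (95% interval 324 to 390). It was at 1587 FPKM in B-ALL, 843 in T-ALL and 719 in AUL, and at 0.518 in normal myeloid, 0.594 in normal T and 1.66 in normal B cells. No normal library overlapped the leukaemias, a separation set by the design, since the leukaemias came from mice with N-Myc overexpression. The construct is not given, so reads of an introduced Mycn sequence and of the gene on chr12 cannot be told apart here. Myc, its paralog (chr15:61985391-61990374), was at 0.251 FPKM in AML and 90.0 in lineage-negative cells, 358-fold lower (227 to 605). Myc was at 2.35 FPKM in B-ALL, 0.874 in T-ALL and 0.907 in AUL. It was at 6.45 in normal myeloid, 47.4 in normal B and 98.2 in normal T cells, so all 4 leukaemias lay below all 4 normal libraries. The share of all genes without overlap between leukaemic and normal libraries was not counted. Mycl, the remaining family member, was listed at 0 in AML and at 8.50 FPKM in lineage-negative cells. Max, the obligate partner, was nearly equal, at 82.4 FPKM in AML and 78.4 in lineage-negative cells. Among the antagonists that compete for MAX, Mnt was at 51.4 against 25.7 FPKM and Mxd3 at 2.25 against 19.4 FPKM, in opposite directions. Mycn and Myc thus differed in opposite directions while their shared partner was at a like level.

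Among 39 nucleolar genes of ribosome production, 17 passed 2-fold upward in AML (11.5% of all genes) and none lower, with a median difference of 0.90 against -0.14 for all genes. Gnl3 (nucleostemin) was at 145 FPKM in AML and 47.9 in lineage-negative cells. Ncl (nucleolin) was at 1167 against 421 FPKM and Nop56, a core protein of box C/D small nucleolar particles, at 571 against 211 FPKM. Noc3l alone of the 39 had a difference below 0, at -0.15. Npm1 (nucleophosmin) was at 1762 against 757 FPKM, while Fbl, the methyltransferase of the same particles, differed by only 0.22.

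The enzymes that transcribe ribosomal and transfer RNA were higher in part. Of 17 RNA polymerase I and III genes 4 were at least 2-fold higher (23.5% against 11.5% of all genes) and none lower, with a median of 0.53. Polr1b, the second largest subunit of RNA polymerase I, was at 77.5 FPKM in AML against 28.6 in lineage-negative cells. The structural proteins of the cytosolic ribosome differed less. All 32 measured genes stayed within 2-fold, from -0.07 (Rps19) to 0.69 (Rpl18), with a median of 0.33. The median of the ribosomal proteins was thus below that of the genes for building ribosomes.

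Serine and one-carbon metabolism supplies carbon units for purines, thymidylate and methylation. Of 18 measured genes, 7 were at least 2-fold higher (38.9% against 11.5% of all genes) and 2 lower (Mthfd2l and Aldh1l1), with a median of 0.79. Slc19a1, the reduced folate carrier, was at 143 FPKM in AML and 28.7 in lineage-negative cells, a fold of 4.98 (4.72 to 5.26). Psat1 and Phgdh, the first enzymes of serine synthesis, were at 379 against 105 FPKM and at 557 against 174 FPKM. All 3 were also far above normal myeloid cells, at 1.63, 15.6 and 10.2 FPKM for Slc19a1, Psat1 and Phgdh.

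Other supply pathways were less uniform. Of 25 nucleotide synthesis genes 4 were at least 2-fold higher (a share near the 11.5% of all genes), with Gart, a trifunctional purine enzyme, at 166 against 51.3 FPKM, and none was lower. Of 12 polyamine and methionine cycle genes 2 were at least 2-fold higher (16.7%, near the 11.5% of all genes) and 1 lower. Those higher were Odc1 (ornithine decarboxylase) at 210 against 70.5 FPKM and Srm (spermidine synthase) at 463 against 153 FPKM. The lower one was Smox (spermine oxidase), at 1.74 against 21.2 FPKM. Among 19 amino acid transporters and ATF4 target genes 9 were higher (47.4%). They include Atf5 (54.0 against 10.2 FPKM) and Slc7a5, a subunit of the large neutral amino acid transporter (167 against 61.4 FPKM). Ddit4, an inhibitor of mTORC1 signalling, was the lower gene of that list, at 10.0 against 60.5 FPKM. Of 22 glycolysis genes 8 were higher (36.4% against 11.5% of all genes) and 3 lower. Eno1 (enolase) was at 2685 against 688 FPKM and Gpi1 at 2099 against 738 FPKM, but Hk1 (hexokinase 1) was at 56.0 against 158 FPKM. Gapdh was at 319 against 34.9 FPKM, a value that is uncertain because the gene has many processed pseudogene copies that can share its reads.

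Protein synthesis and mitochondrial import genes kept to one side of 0. All 31 tRNA synthetase and translation factor genes had positive differences, from 0.05 (Wars) to 1.39 (Eprs), and 4 of them passed 2-fold (12.9%, close to the 11.5% of all genes). All 31 genes of the mitochondrial ribosome and import machinery were positive too, and 8 passed 2-fold (25.8%). Tomm70a, an import receptor of the outer membrane, was at 116 against 31.4 FPKM, and Hspd1, the matrix chaperonin, at 793 against 275 FPKM. Only 17 of the 32 respiratory chain genes sought were listed. Of these 17, 2 were higher, a share near that of all genes (11.8% against 11.5%), and 1 was lower (5.88% against 29.2%). The 13 protein-coding genes of the mitochondrial genome had a median of 0.72, and 3 of them passed 2-fold.

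**Figure D2:**
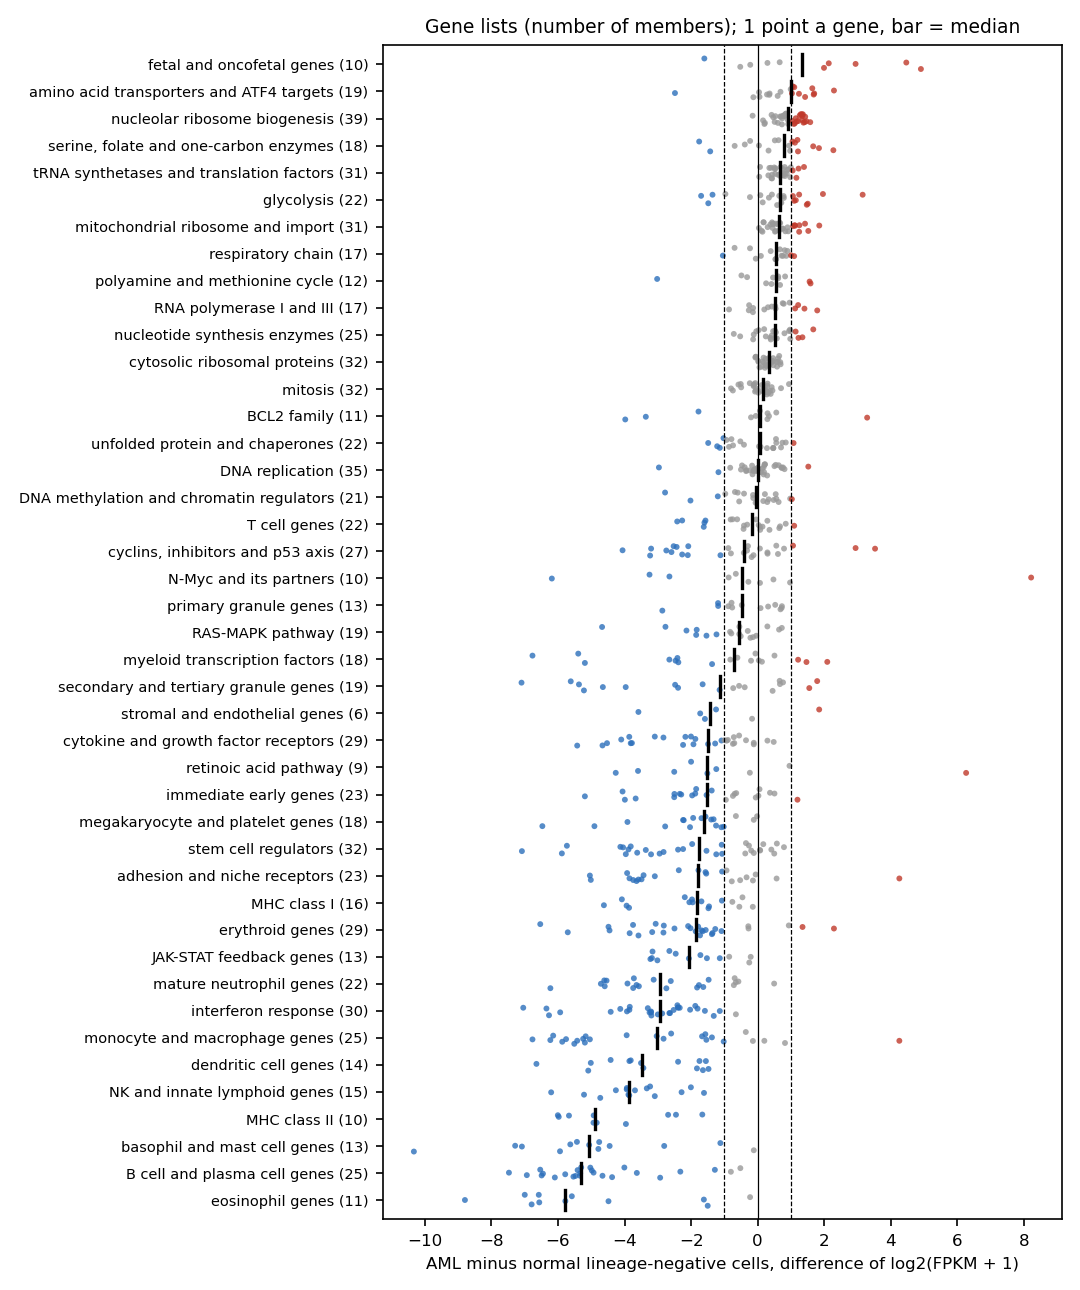
Difference of log2(FPKM + 1), AML minus lineage-negative cells, for the members of 43 gene lists (1 point a gene, black bar the list median, dashed lines 2-fold, vertical jitter only for display). Growth and metabolism lists sit to the right of 0 with medians up to 0.99, and lists of other blood lineages, interferon and MHC genes to the left, down to -5.78 for eosinophil genes.

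Promoter sequences are shown for 3 of these genes because the E-box letters that MYC proteins bind are known, and for Cyp26a1 because of a retinoic acid element described further on. The windows are the 250 bases before the start of each gene, 5′ to 3′ on the gene's strand, from RefSeq on GRCm38.p6, with the motif in capitals. Hspd1 lies on the minus strand at chr1:55088244-55088493. Aldh18a1, which makes a precursor of proline, lies on the minus strand at chr19:40588464-40588713. Ldha (lactate dehydrogenase A) lies on the plus strand at chr7:46845554-46845803 and Cyp26a1 on the plus strand at chr19:37697558-37697807.
Hspd1: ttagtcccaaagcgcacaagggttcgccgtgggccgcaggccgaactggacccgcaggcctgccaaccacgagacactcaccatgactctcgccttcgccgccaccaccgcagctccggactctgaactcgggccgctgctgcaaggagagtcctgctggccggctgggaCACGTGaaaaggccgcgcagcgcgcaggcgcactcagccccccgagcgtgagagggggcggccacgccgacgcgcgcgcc
Aldh18a1: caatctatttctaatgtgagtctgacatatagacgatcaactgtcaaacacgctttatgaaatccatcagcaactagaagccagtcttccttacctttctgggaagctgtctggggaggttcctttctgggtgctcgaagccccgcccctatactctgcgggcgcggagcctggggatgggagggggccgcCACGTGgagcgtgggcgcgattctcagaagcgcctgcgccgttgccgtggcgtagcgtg
Ldha: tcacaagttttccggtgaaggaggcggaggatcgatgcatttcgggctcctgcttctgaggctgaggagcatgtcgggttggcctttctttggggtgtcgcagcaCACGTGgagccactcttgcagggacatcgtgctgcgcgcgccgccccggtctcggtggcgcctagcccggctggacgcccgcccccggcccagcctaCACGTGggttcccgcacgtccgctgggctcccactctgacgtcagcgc
Cyp26a1: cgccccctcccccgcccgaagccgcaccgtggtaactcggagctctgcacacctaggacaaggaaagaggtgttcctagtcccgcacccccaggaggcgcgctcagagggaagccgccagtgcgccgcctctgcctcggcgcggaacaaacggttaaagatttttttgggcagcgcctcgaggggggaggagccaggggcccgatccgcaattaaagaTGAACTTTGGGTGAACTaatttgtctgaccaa

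The E-box searched was CACGTG, which reads the same on both strands. It occurred in 6.02% of all 32851 windows, in 8.16% of those of the compared genes, in 8.79% of those of the higher genes and in 6.57% of those of the lower genes. The window of Ldha held it at 2 places and those of Hspd1 and Aldh18a1 at 1 place each, 80 and 59 bases before the start. The growth lists held 63 genes that passed 2-fold upward, of which 54 had a window. The motif was held by 9 of these genes: Hspd1, Slc16a1, Aldh18a1, Eif5a, Imp4, Cd3eap, Ldha, Timm8a1 and Eif4a1. That is a count of genes, and a gene can have several windows (9034 for 7087 compared genes). It cannot be set against the shares of windows above. The nucleolar list, with a median of 0.90, held the motif in 2 of 38 windows (5.26%). The list of tRNA synthetases and translation factors, with a median of 0.69, held it in 10 of 28 windows from 22 genes (35.7%). Windows of 1 gene can overlap and share a match, as for Eif5a (chr11:69921387-69921636 and chr11:69921276-69921525). Among mostly lower lists, stem cell regulators held it in 5 of 31 windows (16.1%) and interferon response genes in 0 of 27. A match describes letters in the window and is not evidence of binding, and N-Myc binding was not measured in the data used here.

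DNA replication and mitosis genes, which mark cycling cells, were at nearly the same level in both libraries. Of 35 replication genes 1 was at least 2-fold higher and 2 lower, with a median of -0.00 that turned to 0.10 under median-ratio scaling. Of 32 mitosis genes none passed 2-fold, and the median was 0.17. Mki67, the proliferation antigen Ki-67, was at 80.8 FPKM in AML and 136 in lineage-negative cells. Top2a was at 237 and 354 FPKM, and Ccnb1 (cyclin B1) at 115 and 59.2 FPKM. The exceptions among replication genes were Cdc45, a helicase cofactor (158 against 54.5 FPKM), E2f2 (10.4 against 88.1 FPKM) and Rfc3 (18.6 against 43.3 FPKM).

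Regulators of the cell cycle did differ, mostly downward: 11 of 27 were at least 2-fold lower (29.2% of all genes) and 3 higher. The antiproliferative genes Btg2 and Btg1 were at 5.69 against 110 FPKM and at 9.67 against 99.2 FPKM. Ccnd3 (cyclin D3) was at 29.0 against 275 FPKM, and Ccnd2 at 113 against 64.9 FPKM. The CDK inhibitors Cdkn1b and Cdkn1a were at 9.21 against 67.4 FPKM and at 5.38 against 33.5 FPKM, whereas Cdkn1c was at 10.9 against 0.542 FPKM. Cdkn2a, which encodes p16 and p19Arf, was under 1 FPKM in both compared libraries (0.703 and 0.463) and at 12.1 to 220 in the other leukaemias. Among BCL2 family genes, Bcl2 itself was at 0.0990 against 16.3 FPKM and Mcl1, another survival protein, at 211 against 243 FPKM. Bcl2a1a was at 12.6 against 0.384 FPKM, a value to be read with care since near-identical copies of this gene can share reads.

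Stem cell regulators split into 2 sets within the same list. Of 32 measured, 20 were at least 2-fold lower in AML (62.5% against 29.2% of all genes), none was higher, and the median was -1.75. Gata2, a transcription factor of stem cells, mast cells and basophils, was at 0.0488 FPKM in AML and 141 in lineage-negative cells. The surface antigen Cd34 was at 0.183 against 68.8 FPKM and the receptor Flt3 at 0.976 against 26.8 FPKM. The homeobox genes Hoxa9 and Meis1, which are known as drivers of other myeloid leukaemias, had 0 fragments in AML against 15.5 and 6.09 FPKM. They were at least 328-fold and at least 300-fold lower when 3 fragments are taken as the floor of the AML library.

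The other 12 stayed within 2-fold and include several factors that define progenitors. Kit, the stem cell factor receptor, was at 53.4 FPKM in AML and 57.9 in lineage-negative cells, a fold of 1.08 lower (1.05 to 1.13). Hlf was at 8.02 and 7.56 FPKM, Lmo2 at 155 and 198, Runx1 at 43.2 and 56.1, Erg at 48.8 and 34.2, and Lyl1 at 162 and 108. In the other leukaemias Kit was at 0.549 to 2.92 FPKM, Hlf at 0.0221 to 0.145, Erg at 0.397 to 3.49 and Lmo2 at 2.18 to 16.2. For Kit, Hlf, Erg and Lmo2, AML thus stood with the lineage-negative cells and above all 3 other leukaemias. These are 4 chosen genes of a list of 32, of which 20 were at least 2-fold lower in AML. Levels of Runx1, Lyl1 and the rest of the list in the other leukaemias are not given here, so this describes the 4 genes only.

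**Figure D3:**
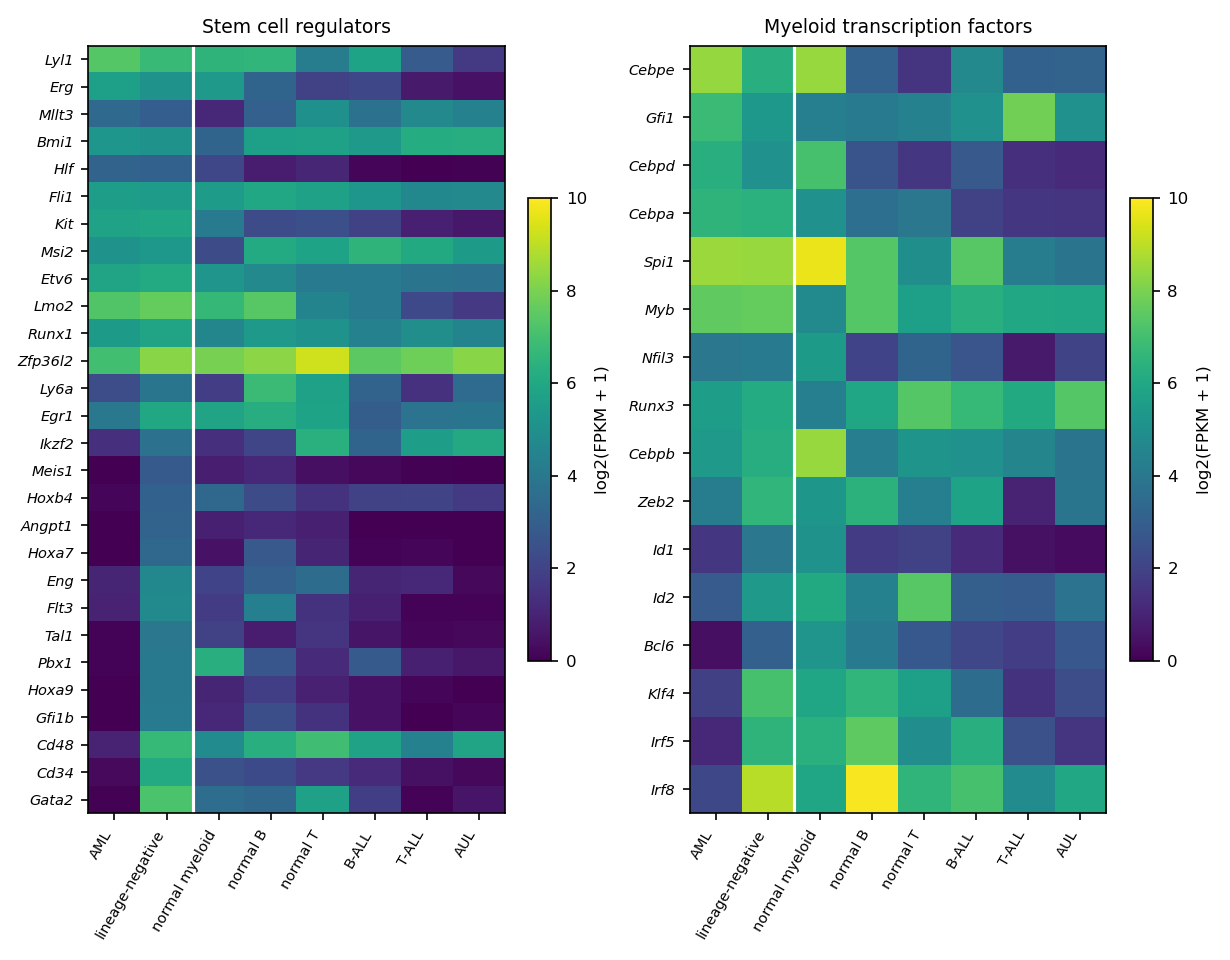
Levels as log2(FPKM + 1) of stem cell regulators (left) and myeloid transcription factors (right) with at least 5 FPKM in either compared library, in all 8 libraries; genes are ordered by the difference between AML and lineage-negative cells, highest at the top. Kit, Hlf, Erg and Lmo2 are alike in the first 2 columns, while Gata2, Cd34, Hoxa9 and Irf8 are dark in AML.

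Transcription factors of myeloid differentiation differed in both directions. Of 18, 3 were at least 2-fold higher (16.7%, near the 11.5% of all genes) and 8 lower (44.4% against 29.2%). Cebpe, needed for secondary granule formation, was at 338 FPKM in AML, 78.4 in lineage-negative cells and 346 in normal myeloid cells. Gfi1, a repressor that favours granulocytes, was at 111, 39.4 and 18.8 FPKM in the same order, and Cebpd at 77.4, 32.7 and 135. Spi1 (PU.1) and Cebpa were nearly equal, at 357 against 348 FPKM and at 90.7 against 82.8 FPKM. On the monocyte and dendritic cell side, Irf8 was at 3.47 against 485 FPKM, a fold of 140 lower (124 to 160), Irf5 at 1.19 against 90.8, and Klf4 at 2.72 against 135. The other 5 lower factors were Bcl6, Id2, Id1, Zeb2 and Batf3.

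The 13 primary granule genes had a median of -0.48 against lineage-negative cells, with none at least 2-fold higher and 3 lower (23.1%, near the 29.2% of all genes), and of 1.58 against normal myeloid cells, a comparison that shares the AML library (0.72 with median-ratio scaling, which divides the myeloid values by 0.593). Elane, neutrophil elastase, was at 3481 FPKM in AML, 2797 in lineage-negative cells and 445 in normal myeloid cells. Ctsg (cathepsin G) was at 1127, 1060 and 72.3 FPKM, Mpo at 2220, 4089 and 354, and Ms4a3 at 474, 287 and 73.2. Fcnb (ficolin B), at 17.6, 134 and 503 FPKM, was the largest exception.

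Secondary and tertiary granule genes divided further. Of 19, 2 were at least 2-fold higher (10.5%, near the 11.5% of all genes) and 10 lower (52.6% against 29.2%). The median was -1.14. Chil3 was at 3004 FPKM in AML, 868 in lineage-negative cells and 6076 in normal myeloid cells. Padi4 was at 206, 69.6 and 551 FPKM, and Ngp and Camp, a granule protein and the cathelicidin, at 3881 and 1822 FPKM in AML against 2436 and 1073. In contrast, Ltf (lactoferrin) was at 66.4 FPKM in AML, 2785 in lineage-negative cells and 26716 in normal myeloid cells. Lyz2 (lysozyme) was at 61.8, 2338 and 10858 FPKM, and the gelatinase Mmp9 and collagenase Mmp8 were at 1.37 and 1.42 FPKM in AML against 323 and 118. Genes of this granule class ranged from 3.46-fold higher (Chil3) to 236-fold lower (Mmp9).

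Mature neutrophil genes were mostly lower. Of 22, 17 were at least 2-fold lower (77.3% against 29.2% of all genes) and none higher. The median was -2.93 against lineage-negative cells and -6.15 against normal myeloid cells. Retnlg was at 9.37 FPKM in AML, 776 in lineage-negative cells and 7482 in normal myeloid cells. Cxcr2, the chemokine receptor of blood neutrophils, was at 0.287, 30.4 and 329 FPKM, and Il1b at 0.351, 31.6 and 678. Csf3r, the G-CSF receptor, was less far apart, at 68.3, 113 and 947 FPKM. The list summed to 4664 FPKM in AML, 15261 in lineage-negative cells and 126024 in normal myeloid cells, so the lineage-negative library itself held neutrophil transcripts.

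**Figure D4:**
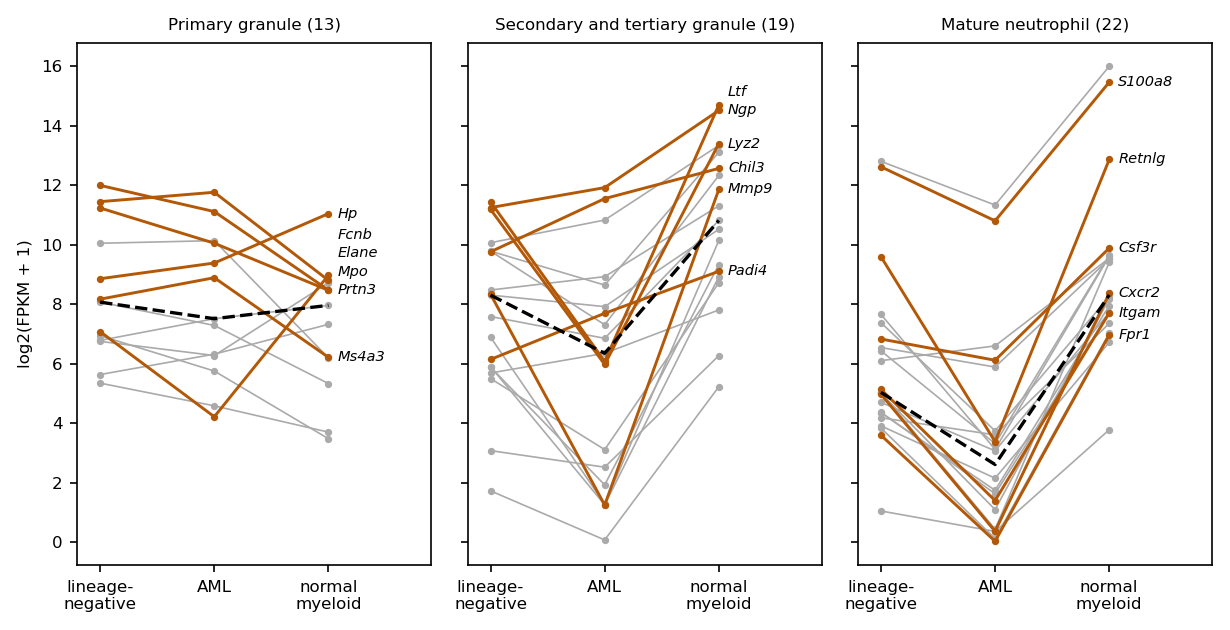
Levels as log2(FPKM + 1) of primary granule, secondary and tertiary granule, and mature neutrophil genes in lineage-negative cells, AML and normal myeloid cells; each line is 1 gene, named genes are in orange and the dashed line is the list median. AML is within 2-fold of the lineage-negative level for Elane and Mpo, above it for Chil3 and Padi4, and at the lowest of the 3 for Ltf, Mmp9, Retnlg and Cxcr2.

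Monocyte and dendritic cell genes were low in AML. Of 25 monocyte and macrophage genes 20 were at least 2-fold lower (80% against 29.2% of all genes). Their median was -3.03 (-5.10 among those with at least 5 FPKM). All 14 dendritic cell genes were at least 2-fold lower, with a median of -3.47. Csf1r, the M-CSF receptor, was at 0.276 FPKM in AML and 53.7 in lineage-negative cells, 195-fold lower (130 to 302). Ms4a6c was at 0.267 against 94.1 FPKM and Ly86 at 0.474 against 103 FPKM. Vcam1, an adhesion molecule of macrophages and stroma, went the other way at 300 against 14.7 FPKM, 20.4-fold higher (19.4 to 21.4), and no other library was above the lineage-negative level. Ly6c2, usually high in monocytes and their precursors, was nearly equal.

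Many of the lowest genes of the comparison mark other blood cells. Prss34, a basophil protease, was at 0.117 FPKM in AML and 1436 in lineage-negative cells, and Cpa3, the mast cell carboxypeptidase, at 0 against 155 FPKM, at least 2020-fold lower. The eosinophil genes Prg2, Ear2, Ear1, Epx and Ear6 were at 0 to 1.38 FPKM in AML and at 93.5 to 1057 in lineage-negative cells; the Ear genes are near-identical copies, so their separate values are uncertain. The B cell genes Spib, Pax5, Cd72 and the surface antigen gene Ly6d were at 0 to 0.350 FPKM against 99.2 to 208. Of 13 basophil and mast cell genes 12 were at least 2-fold lower, of 11 eosinophil genes 10, of 25 B and plasma cell genes 23, and of 15 NK cell genes 15. All 219 immunoglobulin gene segments among the compared genes were at least 2-fold lower, against 29.2% of all genes. A gene under 1 FPKM in AML entered only through the lineage-negative library. Counts in these and other lists near 0 in AML therefore had to lean downward, and they only describe those genes.

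Those markers were high in several normal libraries, not only in the lineage-negative one. Prss34 was at 294 FPKM in normal T cells, 99.4 in normal myeloid cells and 84.5 in normal B cells, and the basophil and mast cell list summed to 646, 554 and 190 FPKM in the same order. In AML, Cpa3, Cd200r3, Il6 and Cma1 of that list were at 0, as were Ear6, Il5ra and Ccr3 of the eosinophil list and Dntt and Rag2 of the B cell list. When genes at least 4-fold higher in normal B or T cells than in both compared libraries were left out, 2751 of 10209 genes were at least 2-fold lower. Without the immunoglobulin segments the count was 2902 of 10463.

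Erythroid and platelet genes were lower as well. At least 2-fold lower were 24 of 29 erythroid genes (82.8%) and 15 of 18 megakaryocyte genes (83.3%), against 29.2% of all genes. Car1, a carbonic anhydrase of erythroid progenitors, was at 0 against 91.5 FPKM, Gata1 at 0.0473 against 22.4, and the integrin Itga2b (CD41) at 0.385 against 122. Haemoglobin genes were low in both libraries: Hba-a1 was at 0.475 against 16.6 FPKM. The transferrin receptor Tfrc, which all growing cells use, was at 270 against 141 FPKM. T cell genes were low and much alike, with 1 of 22 higher and 5 lower (22.7%, below the 29.2% of all genes), and Cd3e was at 2.28 against 1.06 FPKM.

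Receptor and signalling lists held more lower than higher genes. Of 29 cytokine and growth factor receptor genes 17 were at least 2-fold lower (58.6% against 29.2% of all genes) and none higher. Il3ra, the IL-3 receptor chain, was at 1.22 against 50.1 FPKM and Il6st (gp130) at 2.01 against 50.6. The GM-CSF receptor chains Csf2ra and Csf2rb were within 2-fold, at 119 against 200 FPKM and at 31.3 against 51.5. Of 13 JAK-STAT genes 10 were lower (76.9%). They include the feedback inhibitors Socs3 (0.776 against 15.6 FPKM) and Socs2 (0 against 7.07) and the kinase Pim1 (20.8 against 119). In the RAS-MAPK list 7 of 19 were lower (36.8%, near the 29.2% of all genes), among them Rasgrp4, an activator of RAS in myeloid and mast cells (0.160 against 28.6 FPKM) and the ERK phosphatase Dusp6 (3.93 against 32.6), while Mapk3, the kinase ERK1, stayed within 2-fold. Of 23 immediate early genes 13 were lower (56.5%) and 1 higher (Rhob, 383 against 166 FPKM), and Fosb was equal at 143 and 141 FPKM.

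Adhesion genes followed: 15 of 23 were at least 2-fold lower (65.2% against 29.2% of all genes). Itgb2, the beta chain shared by Mac1 and LFA-1, was at 27.7 FPKM in AML, 243 in lineage-negative cells and 1135 in normal myeloid cells. Selplg, the selectin ligand PSGL-1, was at 44.0 against 504 FPKM. Cxcr4, which holds progenitors in the marrow, was at 84.6 against 293 FPKM. The integrin chains Itga4, Itgb1 and Itga6 stayed within 2-fold.

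Interferon response and antigen presentation genes were among the most evenly lower groups. Of 30 interferon response genes 29 were at least 2-fold lower (96.7% against 29.2% of all genes), with a median of -2.93. Ifit2 was the exception at 6.23 against 10.4 FPKM. Ifitm3, a membrane protein that restricts viruses, was at 1.53 FPKM in AML, 333 in lineage-negative cells and 979 in normal myeloid cells. Irf7 was at 1.30 against 32.2 FPKM. The interferon receptor chains Ifnar1 and Ifnar2 were also lower but just under the limit, at 19.95 against 39.0 FPKM and at 31.4 against 63.4. Of 16 MHC class I genes 12 were lower (75%). H2-K1 was at 303 against 1192 FPKM and B2m, the common light chain, at 533 against 1486. The H2-Q and H2-T genes share sequence, so their separate values are uncertain. All 10 MHC class II genes were lower, with Cd74 at 1.70 against 136 FPKM and the regulator Ciita at 0.00450 against 2.18, in parallel with the B cell and dendritic cell markers whose values are given above; their part in this difference was not tested.

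Several of the genes with the highest differences after Mycn are known from other tissues. Dmrt1, a transcription factor of the testis, was at 90.8 FPKM in AML and rested on 1 fragment in lineage-negative cells. Cyp26a1, which breaks down retinoic acid, was at 78.9 FPKM against 0.0380 (2 fragments), a ratio of 2073 with an interval of 594 to 17748. The testis gene Tcp11x2 and the chloride channel Cftr were at 36.1 and 31.1 FPKM with 0 fragments in lineage-negative cells, at least 951-fold and 2086-fold higher. In the other leukaemias these 4 genes were at 0 to 0.433 FPKM, so high levels were seen in AML alone among the 8 libraries.

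Other genes of that ranking were Penk (proenkephalin), Thbs4 (thrombospondin 4), the diacylglycerol kinase Dgkh, the RNA-binding protein Igf2bp3, Cth (cystathionine gamma-lyase), the steroid dehydrogenase Hsd17b2, Art3 and the imprinted gene Peg10. Their levels in AML were 24.9 (Peg10) to 88.6 FPKM (Penk), against 0.0542 to 1.46 in lineage-negative cells. Igf2bp3 was also at 22.03 FPKM in B-ALL and 10.3 in T-ALL. Dgkh was at 9.20 FPKM in normal myeloid cells, the highest of the normal libraries. Their values in AML rest on 935 fragments (Hsd17b2) or more.

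Fetal and oncofetal genes were higher in 5 of 10 cases (50% against 11.5% of all genes), with a median of 1.33. This median depends on the filter, since 0.11 was found with no filter on low values, 2.07 with at least 5 FPKM and 2.01 with median-ratio scaling. Hmga1, a chromatin protein abundant in embryos, was at 1070 FPKM in AML and 242 in lineage-negative cells. Gpc3 (glypican 3) was at 55.6 against 1.56 FPKM, 35.7-fold higher (30.2 to 42.5), and Igf2bp2 at 7.59 against 1.15. Cdkn1c, an imprinted gene also counted among the cell cycle inhibitors, was the other higher member besides Igf2bp3. Lin28a was at 24.5 against 15.1 FPKM, and Grb10 was the member at least 2-fold lower, at 1.15 against 5.52.

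In the retinoic acid pathway only Cyp26a1 was at least 2-fold higher, and 6 of 9 measured genes were lower (66.7% against 29.2% of all genes). The receptors Rara, Rarg and Rxra were at 0.954 against 22.6 FPKM, at 0.457 against 27.0 and at 1.27 against 11.9. The promoter window of Cyp26a1 shown above held 1 match to the DR5 retinoic acid response element, a direct repeat of the receptor hexamer with a spacer of 5 bases, starting 32 bases before the gene. Searched on both strands, this element occurred in 29 of 32851 windows (0.0883%). Whether the receptors act at it in these cells was not measured.

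Chromatin regulators were at similar levels, with 1 of 21 at least 2-fold higher (Idh2, 394 against 193 FPKM) and 3 lower (Cbx2, Cbx8 and Idh1). These shares, 4.76% and 14.3%, were below the 11.5% and 29.2% of all genes. Dnmt3a was at 85.5 against 42.9 FPKM, just under the limit, and Ezh2 at 72.3 against 143. The median of this list, -0.06, turned to 0.04 under median-ratio scaling. Of 22 chaperone genes 1 was higher (Cct8, 4.55% of the list) and 4 lower (18.2%), also below the shares of all genes. Hsp90ab1 was among the most abundant transcripts of AML at 4886 FPKM against 2719.

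Genes of chromosome 16 had the highest median difference of the autosomes and the X chromosome. Its 308 protein-coding genes had a median difference of 0.52, and 87 (28.2%) passed 2-fold upward, against 11.1% of all protein-coding genes. The medians of the other autosomes ran from -0.52 (chromosome 6) to 0.05 (chromosome 12), and their shares of higher genes from 8.25% to 14.3%. In 4 consecutive stretches of 77 genes along the chromosome the medians were 0.77, 0.68, 0.25 and 0.49, each above the highest median of another autosome. Restricted to the 260 genes with at least 5 FPKM, the median was 0.66.

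Chromosome 16 ranked first of the 19 autosomes for AML against normal myeloid cells (median 1.48, other autosomes 0.20), normal B cells (0.55 and -0.03), normal T cells (0.71 and 0.02), T-ALL (0.44 and -0.06) and AUL (0.49 and -0.01); these comparisons share the AML library. Against B-ALL it ranked 2, at 0.01 and -0.13. B-ALL against lineage-negative cells also had it first, at 0.42 against -0.17 for the other autosomes. T-ALL against lineage-negative cells had it at rank 3 (0.01 and -0.13) and AUL at rank 6 (-0.19 and -0.25). In the normal B, T and myeloid libraries against lineage-negative cells it ranked 12 to 19. Several genes named above under other headings lie on chromosome 16. Among them are the higher genes Gart, Tomm70a, Cdc45, Cct8 and Igf2bp2, and Tfrc, Erg, Runx1, Ifnar1 and Ifnar2. Lower genes such as Ciita and Bcl6 lie there as well. How much of each gene's difference goes with the chromosome was not tested. Gene copy number was not measured in the data used here.

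**Figure D5:**
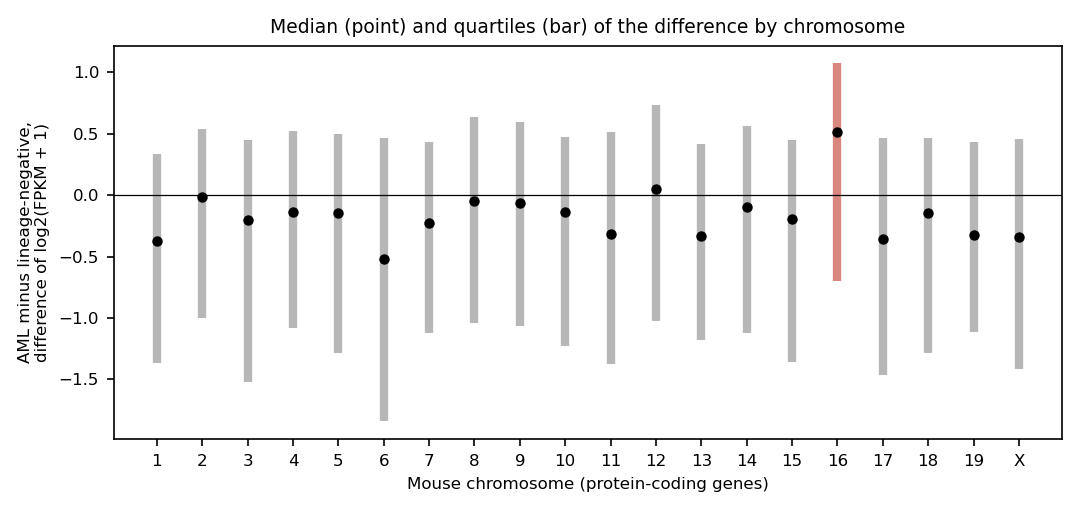
Median (point) and quartiles (bar) of the difference of log2(FPKM + 1), AML minus lineage-negative cells, over the protein-coding genes of each chromosome. Chromosome 16, in red, has a median of 0.52, and the medians of the other autosomes lie between -0.52 and 0.05.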

How the data were processed

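RNA was measured in 8 sorted bone marrow libraries, 1 per group. Per the labels' protocols, mRNA was selected on oligo(dT) beads, primed at random for cDNA and sequenced as Illumina read pairs of 150 bases, and reads failing quality control were discarded. Per the submitters' processing notes, STAR, HTSeq and edgeR were run on mm10; versions, settings and strandedness are not given in the sources used here. The authors deposited FPKM per gene for 16434 genes. How genes were chosen for the table is not stated, and its name refers to differing genes, so shares of genes refer to listed genes.

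Genes with FPKM of at least 1 in AML or lineage-negative cells were compared as log2(FPKM + 1) with a pseudocount of 1, and a difference of at least 1 was counted. Fragments per value came from the step of 1 fragment in FPKM times the mean transcript length in GENCODE vM21: within 0.02 of a fragment, whole fragments came out for 95.9% to 96.7% of values where the gene has a single transcript, and for 87.1% to 88.8% of all values tested. Fold intervals are 95% intervals of the ratio of 2 fragment counts, and a fold against 0 fragments uses 3 as the floor. The calls and intervals were also run on simulated data, and the outcome is not reported here. Simulated counts cannot show how much libraries of the same group differ, so no conclusion about the calls is drawn from that run. Where a symbol was listed more than once, the row with the higher sum was used.

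There were 43 gene lists. Not all genes sought were listed, as for the respiratory chain (17 of 32), RNA polymerase I and III (17 of 30) and chromatin regulators (21 of 34). Named genes were Mycn and Myc, the 15 highest and 15 lowest differences among genes reaching 10 FPKM in either library (antigen receptor segments and genes with Gm, Rik or like names were counted without naming), up to 4 members of a described list with FPKM of at least 5, the 5 most abundant genes of each library, the sort antigens, and other list genes where their value is given; some genes that this rule would name are not reported here. Chromosome 16, Rpph1 and the small nucleolar RNAs were chosen after their values were seen. The compared libraries, the gene lists and the naming rule were chosen with earlier results of these data known. Alternatives were the pseudocount, the filter on low values, 2 other scalings and 4 exclusions of genes. The table had 0 other columns of per-sample values. Promoter windows came from RefSeq (GRCm38.p6) and matched 7087 of the compared genes by symbol. Python 3.11.15, numpy 2.4.6, pandas 2.3.3, scipy 1.17.1 and matplotlib 3.10.9 were used.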

Additional observations from a re-analysis of the deposited data

How the results depend on the processing

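No setting turned the direction of the median gene or of a ranked gene. List medians near 0 changed sign: DNA replication was 0.05 with FPKM of at least 5 and 0.01 with a common FPKM sum, chromatin regulators were 0.05 without genes 4-fold higher in normal B or T cells, and the BCL2 family, 0.07 as reported, was -0.05 with no filter. The count of lower genes was 2074 among the 7751 genes with FPKM of at least 5. The median gene, -0.14 as reported, was -0.0472 with that filter, -0.0733 with no filter, -0.0229 with median-ratio scaling and -0.0834 without genes 4-fold higher in normal B or T cells. Among alternatives added after seeing the data, it was -0.112 without immunoglobulin segments and -0.187 over protein-coding genes. The counts of higher genes ranged from 937 to 1557 over all settings. Pseudocounts of 0.1 and 0.5 shifted 15 and 9 of the 43 list medians, and 30 and 23 of the 46 genes named by rank, abundance or sort antigen, by over 0.5. A minimum of 5 FPKM shifted 6 list medians by over 0.5 (monocyte genes to -5.10, stromal to -3.58, erythroid to -2.83, megakaryocyte to -2.78, eosinophil to -6.56 and fetal to 2.07), no filter 5, median-ratio scaling 1, leaving out genes 4-fold higher in normal B or T cells 2 of 42, and the other settings 0. No paired analysis was possible because each group has 1 library, and no replicate could be left out for the same reason. Values under 1 FPKM rest on few fragments, and a gene at 0 in 1 library has a lower bound only.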

Other observations

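Small nucleolar RNAs, which guide the modification of ribosomal RNA and mostly lie in introns of host genes, were measured for 110 members. Of these, 46 (41.8%) were at least 2-fold higher in AML than in lineage-negative cells and 6 lower, with a median difference of 0.73 against -0.14 for all genes. Snord69 was at 94.2 FPKM in AML and 23.3 in lineage-negative cells, and Snora41 at 43.2 and 10.7 FPKM. These RNAs are short and lack poly(A) tails, and reads of the host gene cannot be told apart from theirs without stranded and spliced counting, so their separate values are uncertain.

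Rpph1, the RNA of RNase P that trims the 5′ end of transfer RNA precursors (mm10 chr14:50807449-50807767), was at 226 FPKM in AML and 8.53 in lineage-negative cells, a ratio of 26.5 (22.1 to 32.0). It was at 198 FPKM in B-ALL, 207 in T-ALL and 208 in AUL. In the normal myeloid, T and B libraries it was at 7.56, 9.23 and 9.59 FPKM. All 4 leukaemias thus lay between 198 and 226 FPKM and all 4 normal libraries between 7.56 and 9.59, with no overlap. Rpph1 was chosen after its values were seen. The share of all genes that separate leukaemic from normal libraries in this way was not counted. Rpph1 RNA has no poly(A) tail, and library preparation dates are not given in the sources used here. Their part in this difference was not tested.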
